A study of Mus musculus with 4 samples.

Results

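B cells were 275 of the 11631 cells that remained after sorting mouse splenocytes for CD11b, an integrin chain of myeloid cells. They were taken as the cells that carry the deposited cell type B cell, 196 of 4827 cells in the steady-state library and 79 of 6804 in the GM-conditioned library. The libraries were made by CITE-seq, which counts the RNA of each cell together with antibodies that carry DNA tags. Mice of the second group received 3 once-daily subcutaneous injections of 10 µg GM-CSF (granulocyte macrophage-colony stimulating factor), and cells were isolated 24 h after the last injection. Untreated mice gave the steady-state library. The study used mice of 8 to 12 weeks, its wild-type mice were C57BL/6, and the sources used here do not give how many mice were pooled in each library. Each condition was 1 library. Conditions were therefore compared without a test or a spread between animals, since the cells of a library are not replicates, and a library difference cannot be told apart from a response to GM-CSF. Every interval below is an exact 95% interval that covers counting error only.

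A B cell senses antigen with a surface immunoglobulin that signals through the paired chains Cd79a and Cd79b, and it presents the antigen it takes up on MHC class II. In the mouse spleen, immature B cells arrive from the bone marrow, pass through transitional stages and become follicular B cells, which recirculate, or marginal zone B cells, which stay near the blood sinus. B-1 cells are a separate lineage that can carry CD11b, whereas most splenic B cells do not.

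The genes that set the B cells apart from the other 11 deposited cell types were B lineage genes. Of 1730 genes with at least 100 unique molecular identifiers (UMIs, each a captured RNA molecule counted once) in B cells, 54 (3.12%) were at least 2-fold above every other cell type in CPM (UMIs of a gene per 1000000 UMIs), and 21 were at least 10-fold above. Cell types were defined by clustering on these RNA counts, so the contrast describes the cluster and is no test of it. Among the 15 genes with the largest ratio to the next cell type were Ebf1, Ms4a1, Cd79a, Fcmr, Ly6d, Pax5, Cr2, Fcrla, Tnfrsf13c, Fcer2a, Vpreb3, Cd79b, Chst3 and Blk. Cd79a reached 1944 CPM in B cells over both libraries, 213 times (165 to 285) the level of the next cell type, MoMacDC_c4. Ms4a1, which encodes CD20, reached 1485 CPM, a ratio of 239 (175 to 343), and Ly6d reached 1539 CPM, a ratio of 160 (125 to 213). These ratios depend on summing both libraries, since MoMacDC_c4 held B cell transcripts in steady state. In the steady-state library alone the ratio to MoMacDC_c4 was 15.1 for Cd79a, 18.6 for Ms4a1, 11.2 for Ly6d and 4.01 for Vpreb3, the smallest among the 15, and the order of the genes changed. In the GM-conditioned library alone Cd79a stood at 208, against macrophages with 0 UMIs. For Ebf1, Fcmr, Pax5, Cr2, Fcer2a, Chst3 and Blk the next cell type was the macrophage cluster of 47 cells with 0 UMIs, so the place of these 7 genes in the order depends on the 0.5 counts added to each sum.

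Promoters of 10 of these 15 genes were found in the RefSeq table of GRCm38.p6, each 250 bases before to 50 bases after an annotated start. They were searched on both strands for 3 short motifs of B lineage factors, the octamer ATGCAAAT bound by Oct factors, CCCNNGGG bound by EBF1, and the core GAGGAA bound by PU.1 and SPIB. Among all 32851 promoters of the table, 1.74% held the octamer, 13.7% the EBF motif and 28.3% the PU.1 core. Of the 10 genes, the octamer stood in Vpreb3, the EBF motif in Chst3, and the PU.1 core in Cd79a, Chst3, Ebf1, Fcmr and Fcrla. Below are the promoters of Cd79a, for the receptor chain used to define the cluster, of Vpreb3, the gene with the octamer, and of Chst3, the gene with the EBF motif. They are written 5′ to 3′ along the gene, with motif matches on either strand in capitals. The Cd79a window lies on the plus strand at chr7:24897247-24897546 and its match, the reverse complement of the PU.1 core, begins 140 bases before the start. The Vpreb3 window lies on the plus strand at chr10:75948050-75948349, and its octamer, also as the reverse complement, begins 45 bases before the start. The Chst3 window lies on the minus strand at chr10:60219211-60219510, with EBF matches 197 and 136 bases and a PU.1 core 107 bases before the start. A match of letters is a description and does not show that a factor binds there.
Cd79a: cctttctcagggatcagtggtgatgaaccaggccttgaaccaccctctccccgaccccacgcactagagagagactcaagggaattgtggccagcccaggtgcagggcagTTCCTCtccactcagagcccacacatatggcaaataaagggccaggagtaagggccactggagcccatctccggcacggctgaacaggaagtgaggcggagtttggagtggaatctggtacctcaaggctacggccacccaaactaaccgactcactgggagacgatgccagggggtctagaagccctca
Vpreb3: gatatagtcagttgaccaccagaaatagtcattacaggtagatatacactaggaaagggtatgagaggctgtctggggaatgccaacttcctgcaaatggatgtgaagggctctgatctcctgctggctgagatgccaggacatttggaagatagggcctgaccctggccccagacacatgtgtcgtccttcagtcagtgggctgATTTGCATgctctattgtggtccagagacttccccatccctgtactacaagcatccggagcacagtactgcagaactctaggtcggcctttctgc
Chst3: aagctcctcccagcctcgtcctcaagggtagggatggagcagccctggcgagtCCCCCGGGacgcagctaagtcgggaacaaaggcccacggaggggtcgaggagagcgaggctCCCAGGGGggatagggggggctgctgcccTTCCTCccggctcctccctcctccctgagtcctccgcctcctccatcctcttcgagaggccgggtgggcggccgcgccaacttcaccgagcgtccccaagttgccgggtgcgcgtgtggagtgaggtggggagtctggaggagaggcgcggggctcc

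The cells labelled B cell carried the defining genes of B cells, which describes the clusters, since they were made and named from the same RNA counts. At least 2 of the 3 defining genes Cd79a, Cd79b and Ms4a1 were detected in 195 of 196 steady-state and 77 of 79 GM-conditioned B cells, and 1 steady-state B cell had none of them. In steady state Cd79a was at 1869 CPM (1780 to 1962) in B cells and 2.75 CPM (0.333 to 9.94) in T cells, the other lymphocytes of the sort. In the GM-conditioned library it was at 2203 CPM (2023 to 2394) in B cells and had 0 UMIs in 39 T cells, where 3 counts would be 30.9 CPM. Cd79b was at 1583 and 1824 CPM and Ms4a1 at 1594 and 1103 CPM in steady-state and GM-conditioned B cells. Immunoglobulin genes were not analysed here, so isotypes cannot be given.

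**Figure D1:**
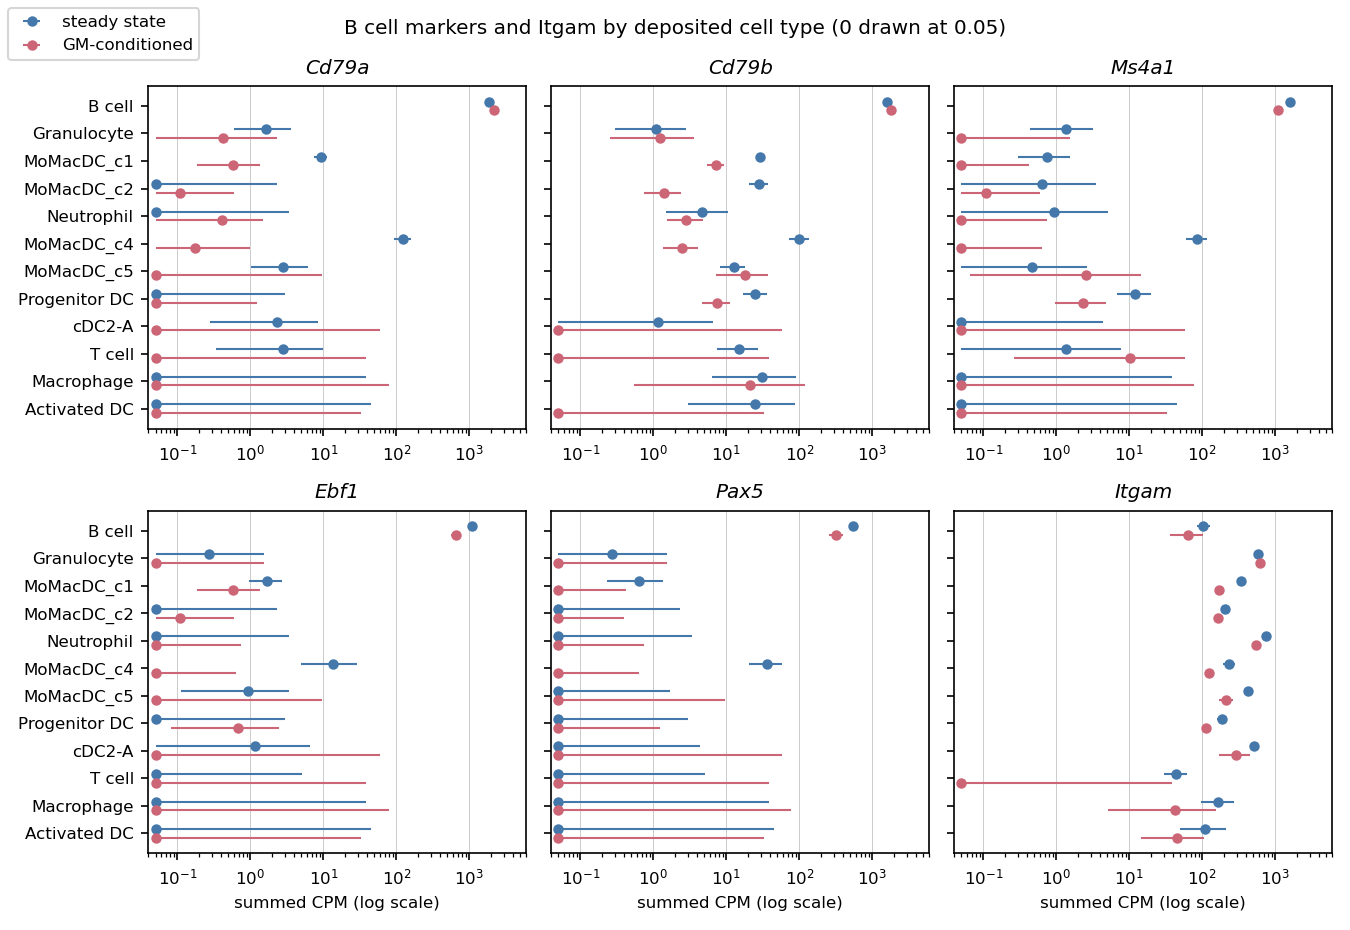
Summed CPM of the markers Cd79a, Cd79b, Ms4a1, Ebf1 and Pax5 and of Itgam in each deposited cell type, on a log axis with exact Poisson 95% intervals, for the steady-state (blue) and GM-conditioned (red) library, with 0 drawn at 0.05. The 5 B cell markers stand highest in B cells in both libraries, and Itgam is lower in B cells (104 and 63.7 CPM) than in granulocytes (580 and 617 CPM).

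Itgam, the gene of CD11b itself, was low in the B cells of this CD11b sort. It was at 104 CPM (83.6 to 128) in steady-state and 63.7 CPM (36.4 to 104) in GM-conditioned B cells, against 580 CPM (556 to 605) and 617 CPM (586 to 649) in granulocytes. Itgam UMIs were found in 37 of 196 and 11 of 79 B cells. In the 219 B cells with few myeloid transcripts, described next, Itgam had 13 and 10 UMIs, 27.1 and 45.1 CPM, and the ratio of GM-conditioned over steady state turned from 0.629 to 1.68 (0.654 to 4.11). No tag for CD11b was among the 5 tags counted.

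A subset of the B cells also carried many myeloid transcripts. In 56 of the 275 cells, 50 in steady state and 6 in the GM-conditioned library, UMIs of the neutrophil and monocyte marker lists made up 20 or more per 10000. This limit was set after the values were seen, and the distribution has no gap there, with cells at 19.7 and at 20.5 per 10000. Of the 275 cells, 189 lay under 10, 30 between 10 and 20, 10 between 20 and 40 and 46 at or above 40. The steady-state cells over the limit had a median of 7808 UMIs, against 2618.5 in the other steady-state B cells. Doublets were called by Scrublet in each library, and all 15 steady-state and 3 GM-conditioned B cells that it called were among the 56. Summed over the 14 genes of the neutrophil list, B cells were at 3560 CPM in steady state and 837 CPM in the GM-conditioned library, and at 275 and 302 CPM without the 56 cells. The 12 genes of the monocyte list were at 4680 and 757 CPM, and at 188 and 311 CPM without them. T cells stood at 2870 and 381 CPM for the neutrophil list and at 1627 and 226 CPM for the monocyte list. T cells were not filtered by this limit, here or in the comparisons below. Because the myeloid transcripts differ in this way between libraries, the genes of each list are compared in the 219 cells under the limit. These were 146 in steady state and 73 in the GM-conditioned library. Values over all 275 cells are given where they change the call or the direction. Monocyte list UMIs per 10000 had medians of 365 and 84.8 in MoMacDC_c1 and of 42.6 and 21.9 in MoMacDC_c2 (steady state and GM-conditioned). One limit may therefore not catch B cells with myeloid transcripts alike in both libraries. Its part in the ratios of genes that myeloid cells express was not tested.

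**Figure D2:**
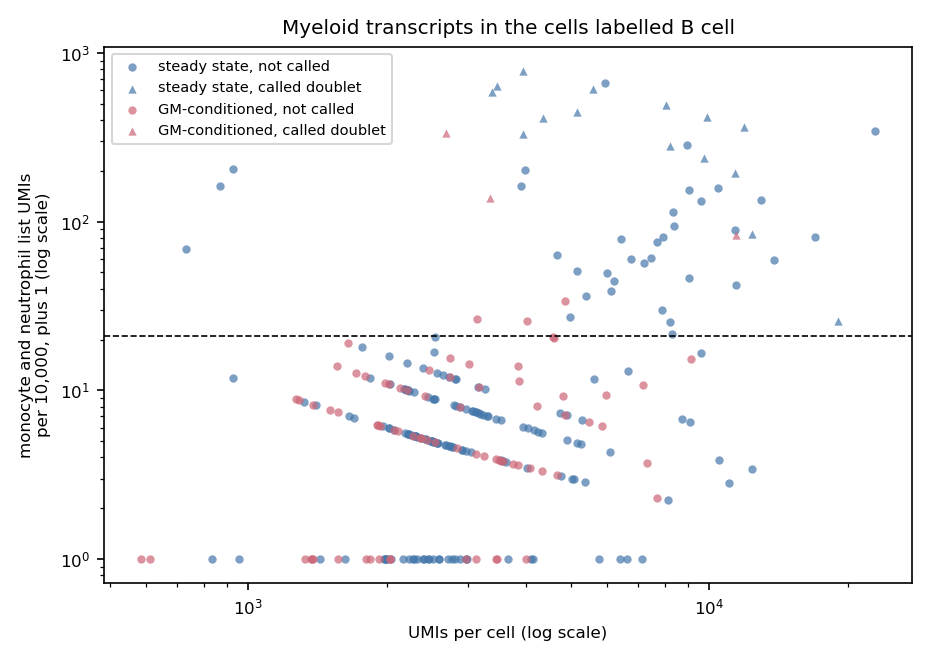
UMIs of the monocyte and neutrophil lists per 10000 UMIs (plus 1, log axis) against total UMIs (log axis) for each of the 275 B cells, coloured by library, with cells called doublets as triangles and the limit of 20 as a dashed line. Of the 56 cells at or over the limit, 50 are from the steady-state library, and all 18 called doublets lie among them.

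Transcripts of T cells, erythroid cells and NK cells were few in the B cells. The T cell list summed to 23.97 CPM in steady-state and 35.9 CPM in GM-conditioned B cells, against 3688 and 4302 CPM in T cells, and Cd3e had 0 UMIs in both libraries. The erythroid list had 2 UMIs in all. The NK cell list was at 75.3 and 19.9 CPM, and at 2.08 and 22.6 CPM in the 219 cells. Conversely, at least 2 of the 3 B cell markers were found in 24 of 4631 steady-state cells outside the cluster (0.518%) and in 1 of 6725 GM-conditioned cells (0.0149%). Of the 24 cells, 18 were in the cluster MoMacDC_c1, 5 were among the 43 steady-state cells of MoMacDC_c4 and 1 was a T cell. None of these 25 cells was called a doublet.

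B cells made up a smaller share of the GM-conditioned library. The share was 4.06% (3.52 to 4.66) of 4827 steady-state cells and 1.16% (0.920 to 1.44) of 6804 GM-conditioned cells. Outside the granulocyte and neutrophil clusters it was 7.12% (6.19 to 8.15) and 1.92% (1.52 to 2.38). Without the 56 cells over the myeloid limit the shares of all cells were 3.02% (2.56 to 3.55) and 1.07% (0.842 to 1.35), and the intervals still did not overlap. T cells also made up a smaller share of the GM-conditioned library, 0.573% against 3.605%. A share depends on every other cell type in the sort, and numbers of B cells per spleen were not analysed here.

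The 196 steady-state B cells held 876214 UMIs with a median of 2976.5 per cell, and the 79 GM-conditioned B cells held 251032 with a median of 2741. A gene with 0 UMIs could therefore stand at up to 3.42 CPM in steady state and 11.95 CPM in the GM-conditioned library (3 counts). Median mitochondrial shares were 7.36 and 8.09%, and ribosomal protein genes took a median of 20.01 and 24.6% of UMIs, against 29.999 and 30.7% in T cells. No cell barcode of a B cell occurred in both libraries, although 8 barcodes of other cells did.

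Surface tags were not used for the clustering, and by MHC II they set B cells apart from T cells and granulocytes but not from every other cell type. The median MHC II tag count was 444 in steady-state and 407 in GM-conditioned B cells, against 12 and 15 in T cells and 5 and 8 in granulocytes. It was above the T cell median of the same library in 99.0% (96.4 to 99.9) and 98.7% (93.1 to 100.0) of B cells. Progenitor DC stood at 1027.5 and 442, and MoMacDC_c2 at 425 and 390, close to the B cells, and Activated DC at 3738 and 5262.5. The CD11c tag had a median of 1 in steady-state B and T cells alike, and of 8 in GM-conditioned B cells against 5 in T cells. Over 219 cells the CD11c medians were 1 and 7. Ly6C tags, a mark of classical monocytes, were lower in B cells (24) than in T cells (42) in steady state and equal (8) in the GM-conditioned library. CD115 and CD301b, which mark monocytes and a subset of dendritic cells, had medians of 0 in steady-state B cells and of 2 and 3 in GM-conditioned ones, with T cells at 0 and at 1 and 3. T cell medians differed between the libraries in the same direction as those of B cells for CD115, CD11c, Ly6C and CD301b.

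Between conditions, more genes were lower than higher in the GM-conditioned B cells. Summed counts were compared as CPM ratios of GM-conditioned over steady state, with 0.5 counts added to each sum, for genes with at least 30 UMIs over both libraries. With all 275 cells, 105 of 5062 genes (2.07%) were at least 2-fold higher and 730 (14.4%) were at 0.5 or less. With the 219 cells, 91 of 3383 genes (2.69%) were at least 2-fold higher and 404 (11.9%) at 0.5 or less. The median ratio of all genes tested was 0.842 and 0.866, so most single genes lay slightly under 1. Divided by that median, 244 genes were higher and 484 lower with all cells, and 167 and 220 with the 219 cells, which raised the higher share of called genes from 12.6 to 33.5% and from 18.4 to 43.2%. Of the 105 higher genes 65 could be tested in the 219 cells and 41 were still at least 2-fold higher. Of the 730 lower genes 340 could be tested and 253 were still at 0.5 or less.

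The genes with the smallest ratios over all 275 cells had most of their UMIs in the 56 cells over the myeloid limit. Hspa1b, an inducible HSP70 chaperone, had 384 UMIs in steady state and 0 in the GM-conditioned library, at least 36.7-fold lower against the floor of 3 counts, and 21 of the 384 UMIs were in the 219 cells. Hspa1a had 288 and 0 UMIs, at least 27.5-fold lower, with 3 UMIs in the 219 cells. Adgre4, a receptor of nonclassical monocytes, had 84 and 0 UMIs, at least 8.02-fold lower, and 0 in the 219 cells. None of the 15 genes with the smallest ratios, which also included Hpgd, C3, Fabp4, F13a1, Cd300e, Eno3, Nxpe4, AI607873, Slfn5, Nupr1, Zfyve9 and Fcgr4, had the 30 UMIs needed for a ratio in the 219 cells. Slfn5 kept the largest part there, 18 of its 38 UMIs in 10 cells. In the 219 cells the smallest ratio was that of Slc7a1, a transporter of cationic amino acids, with 51 and 1 UMIs and a ratio of 0.0631 (0.00106 to 0.248).

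The paired chains of the antigen receptor did not pass the 2-fold limit in either set of cells. In the 219 cells Cd79a was at 2542 CPM in steady state and 2424 CPM after GM-CSF, a ratio of 0.954 (0.860 to 1.06). Cd79b was at 2104 and 1936 CPM, a ratio of 0.921 (0.820 to 1.03). The intervals of both ratios held 1, whereas over all 275 cells Cd79a was at 1.18 (1.07 to 1.30) and Cd79b at 1.15 (1.03 to 1.28). Ms4a1 was lower after GM-CSF, at 2111 and 1178 CPM, a ratio of 0.559 (0.485 to 0.640). Of the 17 genes of receptor signalling, 16 could be tested with a median ratio of 0.923, and 2, Btk and Prkcb, were at 0.5 or less, a share near the 11.9% of all genes. Over all 275 cells both were above 0.5, Btk at 0.563 and Prkcb at 0.542. Prkcb, a kinase that couples the receptor to NF-kB, was at 406 and 190 CPM, a ratio of 0.471 (0.326 to 0.654). Btk was at 95.8 and 45.1 CPM, a ratio of 0.489 (0.212 to 0.946). Cd81, a tetraspanin of the B cell coreceptor, was at 194 and 357 CPM, a ratio of 1.84 (1.35 to 2.51), and reached 2.28 (1.71 to 3.01) with all 275 cells.

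Genes that inhibit receptor signals lay on both sides of 1. Cd72, which restrains receptor signals, was at 273 CPM in steady state and 614 CPM after GM-CSF in the 219 cells, a ratio of 2.25 (1.76 to 2.88). Cd22, another inhibitory lectin, was at 331 and 537 CPM, a ratio of 1.62 (1.27 to 2.07), and the inhibitory Fc receptor Fcgr2b at 102 and 181 CPM, a ratio of 1.77 (1.13 to 2.74). The phosphatase Inpp5d was at 233 and 108 CPM, a ratio of 0.472 (0.286 to 0.726), and at 0.528 over all 275 cells. Of 10 genes of this list 8 could be tested, with a median of 1.18 beside 0.866 for all genes. Of these, 1 was at least 2-fold higher and 1 at 0.5 or less, beside 2.69 and 11.9% of all genes. Pirb stood at 0.484 with all cells and at 1.28 (0.539 to 2.77) in the 219 cells.

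Among the MHC class II chains H2-Eb1 passed the 2-fold limit. It was at 1956 CPM in steady state and 4329 CPM after GM-CSF in the 219 cells, a ratio of 2.21 (2.02 to 2.42), and at 2.64 (2.43 to 2.86) with all 275 cells. The other class II chains were under the 2-fold limit, H2-Ab1 at 2479 and 3756 CPM with a ratio of 1.51 (1.38 to 1.66) and H2-Aa at 2794 and 3774 CPM with a ratio of 1.35 (1.24 to 1.47). Cd74, the invariant chain that binds class II molecules, was at 8236 and 8206 CPM, a ratio of 0.996 (0.942 to 1.05). The chaperone gene H2-DMb2 was at 0.898 (0.690 to 1.15) and H2-DMb1 at 1.14 (0.660 to 1.89). All cells outside the B cell cluster had larger ratios for these genes, 3.62 for H2-Eb1, 3.56 for H2-Ab1, 3.62 for H2-Aa and 3.18 for Cd74, from a different mix of cell types in each library. The costimulatory genes Cd86 and Icosl were lower in B cells, with 34 and 5 UMIs and a ratio of 0.345 (0.0973 to 0.819) for Cd86, which was at 0.577 over all 275 cells, and 27 and 5 UMIs and a ratio of 0.433 (0.121 to 1.06) for Icosl. Of 16 antigen presentation genes 15 could be tested, with a median of 1.03. Of these, 1 was higher and 2 lower, beside 2.69 and 11.9% of all genes. Median MHC II tag counts of the 219 cells were 455 and 396. Which class II chains the tag binds was not examined, so these counts cannot be set against H2-Eb1 alone.

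Of the 5 follicular B cell genes in the table, 3 were at 0.5 or less after GM-CSF in the 219 cells, and the others were not. Among all genes 11.9% were at 0.5 or less. Ccr7, the receptor that guides cells to lymphoid zones, was at 254 CPM in steady state and 85.8 CPM after GM-CSF in the 219 cells, a ratio of 0.345 (0.196 to 0.550). Fcer2a, the low-affinity IgE receptor CD23 of follicular B cells, was at 300 and 104 CPM, a ratio of 0.352 (0.213 to 0.540). Klf2 stood at 0.679 (0.577 to 0.793) and Cxcr5 at 0.775 (0.427 to 1.31), and the median of the 5 was 0.352. The libraries placed different shares of their B cells in the subclusters described at the end. Of the 2 with at least 10 cells of each library, subcluster 0 had Fcer2a at 1.03 (0.234 to 2.75), on 22 and 4 UMIs. That interval holds 0.352 as well. Subcluster 4 had Fcer2a at 1.57 (0.739 to 3.29). Subcluster 2, with 108 UMIs of Fcer2a, held 81 and 4 cells and was not compared. The part of the subclusters in the lower Fcer2a was not tested. Ccr7 was also lower in T cells, with a ratio of 0.461. Of 18 homing and adhesion genes 16 could be tested, with a median of 0.701. Of these, 2 were higher and 5 lower, beside 2.69 and 11.9% of all genes. The integrin chain Itgb1 was at 56.3 and 217 CPM, a ratio of 3.82 (2.36 to 6.42), while its partner Itga4 was at 408 and 181 CPM, a ratio of 0.447 (0.306 to 0.624). Itgb2 changed side with the myeloid cells, at 0.390 (0.237 to 0.589) over all cells and 2.27 (1.17 to 4.42) in the 219 cells. Gpr183 and Cnr2, which position B cells in the spleen, had ratios of 0.498 (0.275 to 0.820) and 0.489 (0.212 to 0.946), and of 0.628 and 0.622 over all 275 cells. Itgb1 was at 1.79 over all 275 cells.

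Genes of the other B cell subsets moved in both directions. Cr2, the complement receptor CD21 that is highest in marginal zone B cells, was at 492 CPM in steady state and 149 CPM after GM-CSF in the 219 cells, a ratio of 0.307 (0.204 to 0.437). Mzb1, a chaperone of marginal zone and B-1 cells, was at 458 and 1178 CPM, a ratio of 2.57 (2.14 to 3.09). Of the 10 marginal zone genes 5 could be tested, with a median of 0.784. Cd24a, high in immature B cells, was at 402 and 158 CPM, a ratio of 0.397 (0.266 to 0.565), and Vpreb3 at 346 and 271 CPM, a ratio of 0.787 (0.573 to 1.06). From the list of T-bet and CD11c positive B cells, Zeb2 could be tested, at 258 and 627 CPM, a ratio of 2.43 (1.89 to 3.12), and at 1.34 over all 275 cells. Tbx21 had 4 and 4 UMIs, Itgax 2 and 8 and Fcrl5 14 and 13, too few for the 30-UMI limit. The germinal centre regulator Bcl6 had 30 and 3 UMIs, a ratio of 0.249 (0.0423 to 0.697). Plasma cell genes were represented by Xbp1 and Irf4 with a median of 0.664, and the B-1 list by Bhlhe41, at 1.41 (0.755 to 2.53), and Spn, at 1.80 (0.814 to 3.85), which was at 0.413 over all cells.

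Of 21 B lineage transcription factors 19 could be tested, 6 at 0.5 or less and 1, Zeb2, at least 2-fold higher, with a median of 0.690 beside 0.866 for all genes, of which 11.9% were at 0.5 or less. Pax5, which holds B cell identity, was at 700 CPM in steady state and 311 CPM after GM-CSF in the 219 cells, a ratio of 0.447 (0.338 to 0.578). Ebf1 was at 1475 and 713 CPM, a ratio of 0.485 (0.404 to 0.575), Bach2 at 325 and 153 CPM, a ratio of 0.478 (0.316 to 0.688), and Bcl11a at 696 and 311 CPM, a ratio of 0.450 (0.340 to 0.582). With all 275 cells these 4 genes were above 0.5, between 0.549 for Bcl11a and 0.598 for Ebf1. Spib, at 0.771 (0.573 to 1.02), Pou2af1, at 0.883 (0.639 to 1.19), and Irf8, at 1.07 (0.867 to 1.32), had intervals that held 1. Irf4 was at 0.417 (0.217 to 0.711), and Irf4 and Bcl6 made up the 6. Among receptors and survival genes of the BAFF pathway, 8 of 14 could be tested and none passed the 2-fold limit in either direction. Tnfrsf13c, the BAFF receptor, was at 402 and 253 CPM, a ratio of 0.633 (0.458 to 0.850), and Bcl2 at 190 and 212 CPM, a ratio of 1.12 (0.770 to 1.61).

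The receptor for GM-CSF was barely detected in B cells. Csf2ra, the alpha chain, had 11 UMIs in 11 of 146 steady-state cells and 4 UMIs in 4 of 73 GM-conditioned cells of the 219. Csf2rb, the shared beta chain, had 12 UMIs in 11 cells and 9 UMIs in 8 cells. The shares with a UMI in steady state, 7.53% for each gene, were near those of T cells, 6.90 and 7.47%, at median depths of 2618.5 and 3747 UMIs. Thinned to 1000 UMIs per cell they were 2.10 and 5.59% in B cells and 2.31 and 1.16% in T cells, with overlapping intervals. These T cells were not filtered by the myeloid limit. In steady state they held the neutrophil and monocyte lists at 2870 and 1627 CPM, against 275 and 188 CPM in the 146 B cells. They may therefore set the background too high. Against this background a higher level of Csf2ra was not detectable at this depth. For Csf2rb the thinned share was higher in B cells than in T cells, and whether its level differs was not tested. Of the 13 genes of the receptor and its STAT5 targets, 3 could be tested in the 219 cells, and the cell cycle gene Ccnd2 was lower, at 194 and 81.3 CPM with a ratio of 0.429 (0.238 to 0.700). The kinase gene Pim1, another STAT5 target, was at 217 and 108 CPM, a ratio of 0.508 (0.307 to 0.785). Cytokine and cytokine receptor genes had 7 of 16 members tested and none past the limit. Of 10 innate receptor genes 3 could be tested, and Cd180 was lower, at 421 and 185 CPM with a ratio of 0.444 (0.306 to 0.618), and at 0.505 over all 275 cells. The type I interferon list had 7 of 16 genes tested, a median of 1.02 and 1 gene higher, beside 2.69% of all genes. This gene was Ly6a (317 and 849 CPM, a ratio of 2.68, 2.15 to 3.34), which was also higher in T cells at 2.85. Proliferation genes were rare, with 6 and 2 UMIs of Mki67.

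Immediate early genes formed the list with the most members lower. Of 21 genes 17 could be tested in the 219 cells and 10 were at 0.5 or less, beside 11.9% of all genes. Their median was 0.340 beside 0.866 for all genes. Fos was at 394 CPM in steady state and 49.7 CPM after GM-CSF, a ratio of 0.131 (0.0619 to 0.231). Junb was at 704 and 230 CPM, a ratio of 0.330 (0.239 to 0.440), and Egr1, with 79 and 3 UMIs, had a ratio of 0.0954 (0.0166 to 0.249). Fosb, Nr4a1, Dusp1, Cd69, Myc, Zfp36 and Klf6 were the other 7. Btg2 went the other way, at 235 and 330 CPM with a ratio of 1.403 (1.03 to 1.90). The same list was low in other cells of the same pair of libraries, with a median of 0.543 in T cells, 7 of 17 at 0.5 or less, and 0.428 in all cells outside the cluster, 14 of 20 at 0.5 or less. These genes are known to respond within minutes to many stimuli. Of 9 heat shock genes 7 could be tested in the 219 cells, with a median of 0.625. Of these, 3 were lower, Dnajb1, Hsph1 and Hspd1, beside 11.9% of all genes.

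The genes with the largest ratios differed with the set of cells. Over all 275 cells they were Dnm3, Tubb2b, AY036118, Cd2, Cdk5rap1, Lgals1, Scimp, Ly6a, Hmgn3, Sdhaf4, Pafah1b3, Rpl13-ps3, Rgs1, As3mt and Fam3c, of which 11 could be tested in the 219 cells and all 11 were at least 2-fold higher there. Dnm3, a dynamin, had 8 UMIs in steady state and 26 after GM-CSF in the 219 cells, a ratio of 6.75 (3.10 to 17.99). Cd2, an adhesion receptor of lymphocytes, was at 144 and 501 CPM, a ratio of 3.48 (2.56 to 4.78), against 0.953 in T cells. Lgals1, the lectin galectin-1, was at 47.9 and 253 CPM, a ratio of 5.21 (3.19 to 8.98). AY036118, annotated as a long noncoding RNA, was at 421 and 2307 CPM. Its ratio of 5.47 (4.65 to 6.48) was close to the 6.10 of T cells, and all cells outside the B cell cluster stood at 3.29. In the 219 cells the list was led by Fcer1g and Apoe, and shared 7 of 15 genes with that of all cells.

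Fcer1g, the signalling chain of activating Fc receptors, was at 31.3 CPM in steady state and 451 CPM after GM-CSF in the 219 cells, a ratio of 14.0 (8.35 to 26.8). With all 275 cells, where the 56 myeloid-rich cells add to steady state, the ratio was 0.707 (0.584 to 0.847). UMIs of Fcer1g were found in 7 of 146 steady-state (4.79%) and 31 of 73 GM-conditioned cells (42.5%). With every cell thinned to 1000 UMIs, and 3 and 2 shallower cells left out, the shares were 1.399% (0.170 to 4.96) and 29.6% (19.3 to 41.6), against 8.09 and 2.56% in T cells. Apoe, which carries lipids, was at 250 and 1697 CPM, a ratio of 6.77 (5.51 to 8.41), and was detected in 12.6 and 39.4% of thinned cells. In T cells Apoe had 66 and 0 UMIs. The T cells, also for Fcer1g, were not filtered by the myeloid limit. Other leading genes of the 219 cells were Lgals3, Efhd2, Itgb1, Npc2, Ahnak and Ms4a6c, with ratios between 3.28 for Ms4a6c and 5.46 for Lgals3, and Ms4a6c belongs to the list that set the myeloid limit. Several of these genes are also expressed by myeloid cells. In the 219 cells the monocyte list rested at 188 and 311 CPM, the macrophage list at 31.3 and 81.3 CPM and the classical dendritic cell list at 8.33 and 72.2 CPM, while the neutrophil list was at 275 and 302 CPM. Their part in the higher Fcer1g and Apoe was not tested.

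**Figure D3:**
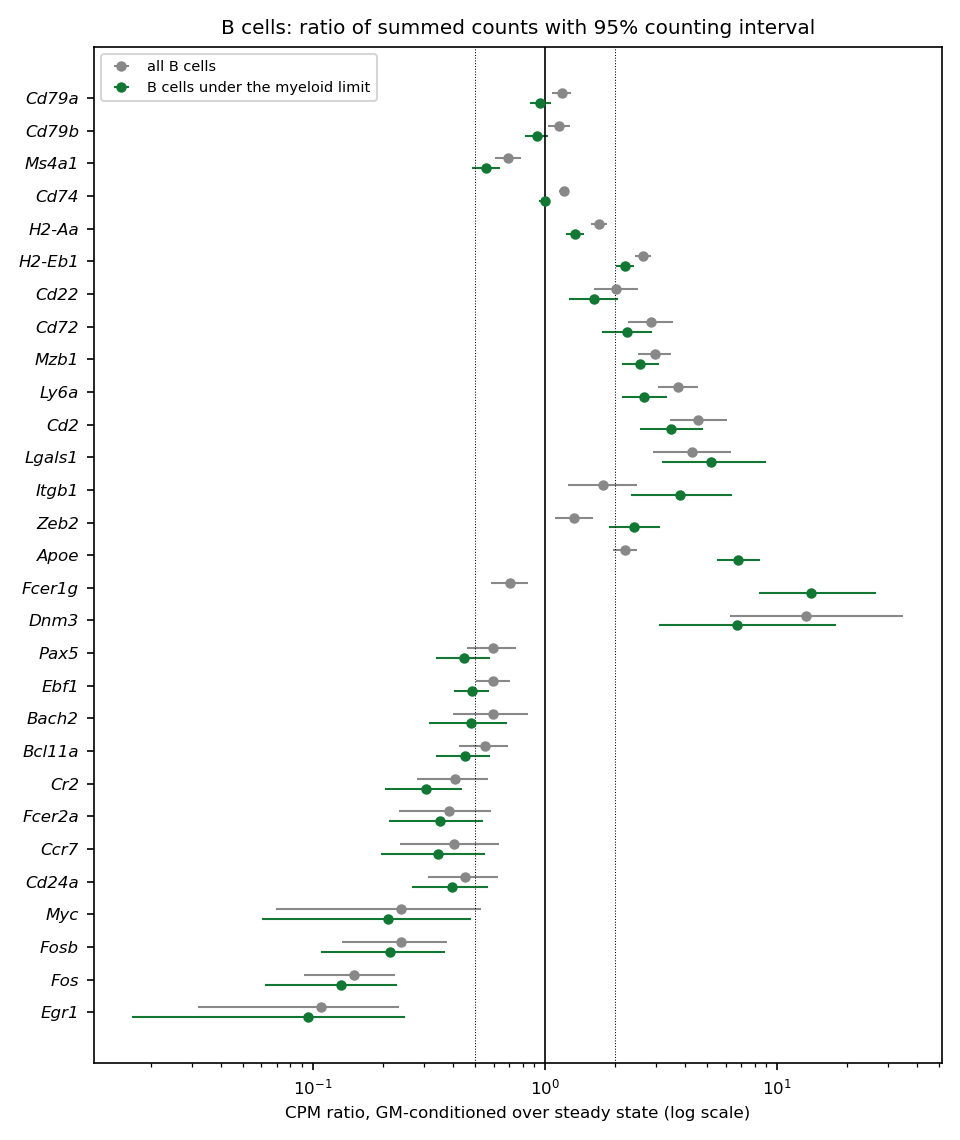
CPM ratios of GM-conditioned over steady-state B cells on a log axis with exact 95% intervals for named genes, over all 275 cells (grey) and over the 219 cells under the myeloid limit (green), with dotted lines at 0.5 and 2. Cd79a and Cd79b lie near 1, Fcer2a, Fos and Egr1 lie under 0.5 in both sets, and Fcer1g moves from 0.707 to 14.0 when the myeloid-rich cells are left out.

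In the GM-conditioned library the cells with Fcer1g differed from the rest of the B cells in other genes too. Of the 31 GM-conditioned cells with a UMI of Fcer1g, 87.1% (70.2 to 96.4) also had Zeb2, against 28.6% (15.7 to 44.6) of the 42 cells without. Ahnak was found in 74.2 and 19.0%, Cd2 in 77.4 and 33.3%, and Lgals1 in 64.5 and 9.52%. Fcer2a and Cr2 were each found in 3.23% of the cells with Fcer1g, against 31.0 and 28.6% of the cells without. The tag for CD11c had a median of 23 in the cells with Fcer1g and 4 in the others. Cells with Fcer1g were deeper, with a median of 3750 UMIs against 2000.5, and the part of depth in the higher shares was not tested. In steady state 7 cells had Fcer1g, and 5 of them had Zeb2.

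Clustering the 275 cells again gave 6 subclusters, numbered 0 to 5. Leading genes describe how the subclusters were made, and sizes were not compared between conditions. Subcluster 0 held 52 cells, 39 in steady state and 13 GM-conditioned. It was led by Vpreb3, at 1177 CPM against 150 CPM in the rest of the B cells. It also held most Cd24a (782 against 244 CPM) and Cd93 (111 CPM), and 5 of 8 genes of the immature and transitional list were detected, summing to 2236 against 434 CPM, so it is called immature B cell-like. Subcluster 2 held 85 cells, 81 and 4, with Satb1 and Fcer2a among its leading genes, and the follicular list summed to 2948 against 1720 CPM, so it is called follicular B cell-like. Subcluster 0 carried the follicular list at a near level, 2631 against 1918 CPM, so this list does not separate the 2 subclusters clearly. The marginal zone gene Cr2 was among its 10 leading genes as well, at 612 CPM. Subcluster 4 held 45 cells, 22 and 23, with Dtx1, Npm1 and Cr2 (606 CPM) among its leading genes, and stays unnamed. Subclusters 3 and 5 held 36 and 17 cells, all over the myeloid limit, with 8 and 10 called doublets. Monocyte genes led subcluster 3, with Lyz2 at 8795 CPM, and neutrophil genes led subcluster 5, with S100a8 at 15093 CPM.

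Subcluster 1 held 40 cells, 5 in steady state and 35 GM-conditioned, and 2 of the 40 were over the myeloid limit. Its leading genes were Dnm3, Lgals1, Rgs1, Scimp, Cd2, Bhlhe41, Kctd14, Ly6a, Mzb1 and AY036118. Dnm3 was at 183 CPM against 5.34 CPM in the rest of the B cells, Lgals1 at 387 against 44.9 CPM and Mzb1 at 1508 against 347 CPM. Fcer1g was at 571 CPM and Apoe at 2288 CPM, with Lyz2 at 126 CPM and S100a8 at 78.5 CPM. In subcluster 3, by comparison, Fcer1g was at 1886 CPM and Lyz2 at 8795 CPM. Cr2 and Fcer2a, which the other subclusters carried at 150 CPM or more, had 0 UMIs in subcluster 1. The B cell markers were present, Cd79a at 2451 and Ms4a1 at 1136 CPM. All 6 genes of the T-bet and CD11c positive list and 5 of the 9 B-1 genes had at least 3 UMIs. These lists summed to 1168 and 503 CPM, against 597 and 313 CPM in the rest of the B cells. Subcluster 3 stood at 1143 and 635 CPM, so neither sum was particular to subcluster 1. Of the 10 marginal zone genes 6 had at least 3 UMIs, and that list summed to 1786 against 1280 CPM, with subcluster 4 at 1766 CPM. With genes of more than 1 subset among them subcluster 1 was left unnamed. A cluster mostly from 1 library may reflect that library. The 40 cells stayed together in 1 cluster at resolutions 0.3 and 0.8, and its 38 cells under the limit did so when the 56 cells were left out first. With steady-state cells alone the 5 steady-state cells fell within a cluster of 39.

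**Figure D4:**
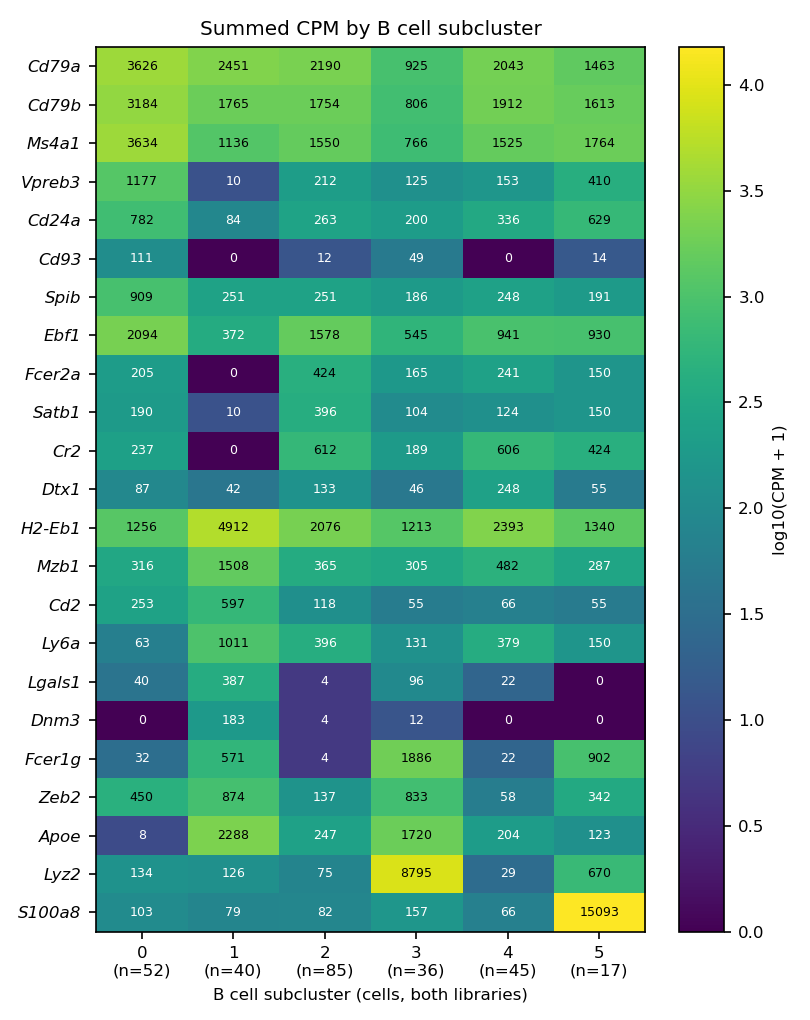
Summed CPM (numbers; colour is log10 of CPM plus 1) of named genes in the 6 B cell subclusters over both libraries. Vpreb3 stands out in subcluster 0, Dnm3 and Lgals1 in subcluster 1, Lyz2 in subcluster 3 and S100a8 in subcluster 5, while Cd79a is at 925 CPM or more in all 6.

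The surface tags, which took no part in this clustering, differed between the subclusters. In subcluster 1 the CD11c tag had a median of 34 in 5 steady-state cells and 24 in 35 GM-conditioned cells. In the subclusters 0, 2 and 4 the medians lay between 1 and 2 in steady state and between 3 and 4.5 in the GM-conditioned library. The myeloid-rich subcluster 3 had 44.5 in 34 steady-state cells and 125 in 2 GM-conditioned cells. MHC II tags were lowest in the immature B cell-like subcluster 0, at 166 and 43, and stood at 819 and 535 in subcluster 1.

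**Figure D5:**
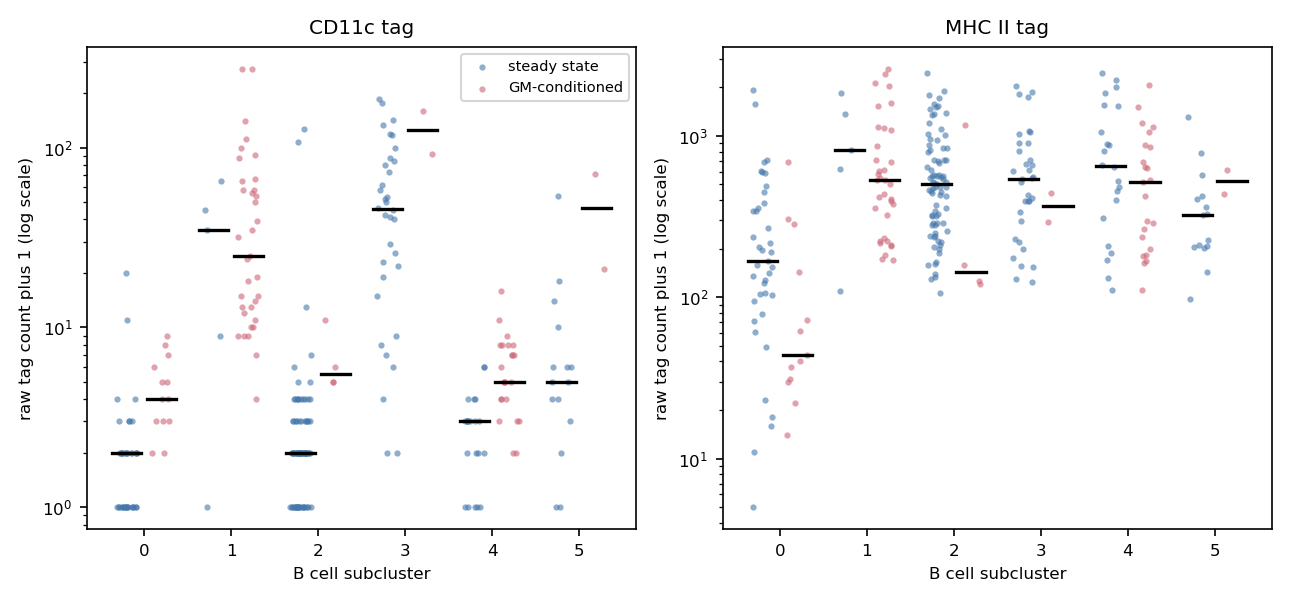
Raw counts of the CD11c and MHC II tags plus 1 (log axis) in each B cell of the 6 subclusters, in blue for steady state and red for the GM-conditioned library, with black bars at the medians. CD11c medians of subclusters 1 and 3 (34 and 44.5 in steady state, 24 and 125 after GM-CSF) lie above those of subclusters 0, 2 and 4.

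Subclusters 0 and 4 held at least 10 cells of each library, and within them fewer of the differences could be seen. Cd79a was at ratios of 0.868 (0.654 to 1.12) in subcluster 0 and 0.968 (0.750 to 1.24) in subcluster 4. Ms4a1 was lower in both, at 0.535 (0.378 to 0.726) and 0.540 (0.383 to 0.739), close to its ratio over the 219 cells. H2-Eb1 was at 872.6 against 1331 CPM in subcluster 0, a ratio of 0.671 (0.378 to 1.07), and at 3184 against 1917 CPM in subcluster 4, a ratio of 1.66 (1.33 to 2.07). Pax5 had ratios of 0.695 (0.366 to 1.16) and 0.411 (0.200 to 0.742). The ratios of Fcer2a are given above. Cd72 was at 2.69 (1.35 to 4.997) in subcluster 0 and 1.05 (0.506 to 2.06) in subcluster 4. Mzb1 was at 1.34 (0.511 to 2.84) and 1.31 (0.772 to 2.17). Cd2 was at 2.08 (0.818 to 4.51) and 2.03 (0.447 to 10.5). Cd74 was at 0.574 (0.455 to 0.709) and 1.05 (0.921 to 1.19). Ly6a had 8 and 0 UMIs in subcluster 0 and was at 1.32 (0.728 to 2.36) in subcluster 4. The part of the subclusters in the ratios over the 219 cells was not tested. Cr2 was at 0.261 (0.00434 to 1.07) in subcluster 0, on 29 and 1 UMIs, and at 0.608 (0.350 to 0.989) in subcluster 4. Fos had 44 steady-state and 1 GM-conditioned UMI in subcluster 0, a ratio of 0.173 (0.00289 to 0.685), and 2 and 2 in subcluster 4. Fcer1g had 3 and 1 UMIs in subcluster 0 and 1 and 2 in subcluster 4, and Dnm3 had 0 in both, so the higher levels of these 2 genes were not detectable in these subclusters at this depth.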

How the data were processed

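CD11b+ splenocytes had been sorted and profiled with Chromium 3' v3 reagents in 1 steady-state and 1 GM-conditioned library, each aimed at 7000 cells. The deposited RNA and tag matrices hold raw counts, UMIs per gene and counts per tag, which the authors made with Cell Ranger and CITE-seq-Count. The submitters' processing notes name Cell Ranger 3.0.2, Seurat 3.6.0 and mm10. The authors left out cells under 200 or over 5000 genes or with over 15% mitochondrial UMIs, and deposited that share as a percent per cell. Cell types are labels that the authors deposited. Cell-cycle phases were deposited for other cells than B cells, so proliferation genes were used in their place.

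Here CPM was the summed count of a gene over the UMIs of the same cell type and library, with exact Poisson intervals. Ratios carry exact intervals from the binomial share of counts, with 0.5 counts added to each sum, and shares carry Clopper-Pearson intervals. Intervals are at 95%, and the floor for 0 UMIs is 3 counts. The ratio was tested on simulated data. For shares of cells with a UMI, each cell was also thinned to 1000 UMIs. The 275 B cells were clustered again on 1000 variable genes, 15 principal components and 10 neighbours at Leiden resolution 0.5. Doublets were called by Scrublet in each library (141 of 4827 and 186 of 6804 cells) and kept, with an alternative without them. Python 3.11.15, scanpy 1.11.5, scipy 1.17.1, numpy 2.4.6, pandas 2.3.3, igraph 0.11.9 and matplotlib 3.10.9 were used.

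The members and the gene lists were chosen with earlier results of these data known. Named are members of 32 lists (313 of 328 genes in the table of 27998), the 15 largest and 15 smallest ratios between libraries and the 15 largest ratios to the next cell type. Genes named from the ends of the ratios in the 219 cells (Fcer1g, Apoe, Lgals3, Efhd2, Npc2, Ahnak, Slc7a1) and from the subclusters were chosen after their values were seen. Alternatives covered doublets, members, depth, weight of cells, scaling, the added count, the minimum of UMIs, single cells, the mitochondrial limit, tag scaling and cluster settings. Results for a few genes are not reported here.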

Additional observations from a re-analysis of the deposited data

Results flagged for a closer look

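For 7 genes the ratio of GM-conditioned over steady state was past 2-fold in one direction in B cells, over all 275 cells and over the 219 under the myeloid limit, and past 2-fold in the other direction in T cells or in all cells outside the B cell cluster. None of these differences was tested. The cells outside the cluster are a different mix in each library, for example 3.67% MoMacDC_c2 cells in steady state and 21.6% in the GM-conditioned library. Dnm3 was at 13.3 in B cells and 0.0577 in all other cells, which held 37 and 3 UMIs. Apoe was at 2.22 in B cells (6.77 in the 219 cells) and 0.0272 in all other cells, and had 66 and 0 UMIs in T cells, at least 2.94-fold lower against the floor of 3 counts. Rgs1, a regulator of chemokine receptor signals, was at 3.14 against 0.257 in all other cells. Mzb1 was at 2.97 against 0.137, and Cd72 at 2.85 against 0.170. Cd24a went the other way, at 0.453 in B cells and 2.10 in all other cells. Arih2, a ubiquitin ligase, was at 0.268 in B cells and 2.26 in T cells, on 31 and 9 UMIs in the latter.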

How the results depend on the processing

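No paired analysis was possible because each condition has 1 library and the labels carry no replicate numbers. Of 92 values of main results under alternatives 59 kept their size and 33 moved. Counts of genes at least 2-fold higher and at 0.5 or less were 105 and 730. They became 37 and 159 with cells thinned to 1000 UMIs, 244 and 1183 at a minimum of 15 UMIs, 28 and 202 at 100 UMIs, which test fewer or more genes, and 244 and 484 after division by the median ratio. Without mitochondrial and ribosomal protein UMIs in the totals 165 genes were higher. Lower genes numbered 351, 404 and 421 without cells with 10, 20 and 40 or more myeloid UMIs per 10000, and with the limit of 20 and the median ratio together 167 were higher and 220 lower. These limits were chosen after seeing the data.

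The steady-state share of B cells became 3.02% of all cells and 5.31% of cells outside the granulocyte and neutrophil clusters without the 56 cells. Shares with any UMI of a subset list were near those of granulocytes or T cells for most lists and moved with thinning to 83.7 and 67.5% (steady state and GM-conditioned, follicular), 58.4 and 67.5% (marginal zone), 22.6 and 20.8% (B-1), 45.3 and 31.2% (immature), 7.89 and 3.90% (germinal centre), 29.5 and 19.5% (plasma cell) and 27.9 and 39.0% (T-bet and CD11c). At full depth, without thinning, the steady-state shares without the 56 cells were 23.3% (B-1), 20.5% (germinal centre) and 37.7% (T-bet and CD11c). They cannot be set against the thinned shares, since the depth differs. Of 217 named genes, 4 that were at 0.5 or less over all cells stood above 1 without myeloid-rich cells, and genes between the fold limits crossed 1 as well (Fcer1g from 0.707 to 14.0, Lgals3 from 0.933 to 5.46, Ms4a6c from 0.712 to 3.28). Under the limit of 20, that limit with the median ratio, and the limit of 40, Spn stood at 1.80, 2.07 and 1.0004 and Pirb at 1.28, 1.48 and 1.08. Under the limit of 20, alone and with the median ratio, Itgb2 stood at 2.27 and 2.63 and Bst2 at 1.03 and 1.19. The cause was not tested.

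With 73 GM-conditioned cells under the limit, the floor of 3 counts was 13.5 CPM, and Tbx21 and Itgax had too few UMIs for a ratio. With 1 library per condition no spread between animals was measured.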

Other observations

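In the cluster MoMacDC_c4, 5 of 43 steady-state cells (11.6%) carried at least 2 of the 3 B cell markers, with 55 UMIs of Cd79a in 5 cells, and 0 of 595 GM-conditioned cells did, for which 3 counts would be 0.504% and the exact upper bound is 0.618%. None of the 5 was called a doublet. CD301b tags reached 459 in 1 GM-conditioned B cell of subcluster 1, where the median was 4.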
